A study of Mus musculus with 6 samples.

Results

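The small subunit of the cytosolic ribosome reads the messenger RNA, and its protein genes were followed here in sorted crypt epithelial cells of Apln-/- and wild-type mice. The genes were taken from the gene count table as the protein-coding entries whose symbol is Rps followed by a number, with or without an a, x or l, and Rpsa. This gave 31 genes of 28564 entries in the table, and all 31 passed the filter on low counts that left 15122 genes. Pseudogenes, predicted copies and the Rps6 kinases are not among them. Fau, Rps3a1 and Rack1 encode small subunit proteins too, but their symbols lie outside the pattern, and they are given separately.

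A small ribosomal subunit is built of 1 RNA and a fixed set of proteins, with a head, which closes over the messenger RNA, and a body with a platform, to which the initiation factors bind. Each protein is needed in 1 copy per subunit, and most of its genes are transcribed in step. Their messenger RNAs start with a run of pyrimidines, the 5′ TOP sequence, through which the growth regulator mTORC1 and the RNA-binding protein Larp1 control their translation. In the intestinal crypt, stem cells and their dividing progeny make ribosomes at a high rate.

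Cells came from the small intestine of male mice aged 13 weeks, 3 samples labelled Apln-/- and 3 of wild-type controls (C57Bl/6). Apln encodes apelin, a secreted peptide ligand. Cells were sorted as live, single, EpCAM-positive and CD44-positive, and negative for CD31 and CD45. Both groups went through the same digestion, sorting and whole-transcriptome amplification. The labels name no treatment, no batch and no litter, and they do not say how the Apln allele was made. They call the samples biological replicates without naming the animals, and p-values here measure the spread between these samples.

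Apln had 0 counts in each of the 3 Apln-/- libraries, against 29, 7 and 5 counts in wild-type libraries 1, 2 and 3. Libraries held 23046880 to 26513481 counts, but 5 entries, mostly mitochondrial ribosomal RNA, took 77.3% to 78.9% of them in Apln-/- and 70.7% to 75.3% in wild type. The remaining depth was 5144725 to 5623112 counts in Apln-/- libraries, against 6037237 to 7616648 in wild-type libraries. Over genes, log2 CPM correlated with Pearson's r of 0.955 to 0.964 among Apln-/- libraries, against 0.910 to 0.922 among wild-type libraries and 0.915 to 0.941 between the groups, so the wild-type libraries were the more scattered. The crypt label held in the markers: the stem cell genes Lgr5 (33.0 ± 6.64 CPM in Apln-/-, 33.0 ± 6.06 CPM in wild type; SD, n = 3 each) and Olfm4 (875 ± 301 and 716 ± 169 CPM) were present. Pecam1, which encodes the sort marker CD31, had 13, 1 and 7 counts in Apln-/- libraries, against 33, 7 and 6 in wild-type libraries. Ptprc, which encodes the sort marker CD45, had 27, 39 and 25 counts in Apln-/- libraries, against 71, 96 and 69 in wild-type libraries.

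The sequences at the start sites of the 6 named small subunit genes of lowest p are shown because these genes lead the difference and because a pyrimidine run at the start is known for messenger RNAs of ribosomal proteins. Each line gives, 5′ to 3′, 40 bases before and 20 bases from the RefSeq start site (GRCm38.p6), and capitals mark the longest pyrimidine run that begins with C within 30 bases of the start, where it has 6 or more bases.
Rps10: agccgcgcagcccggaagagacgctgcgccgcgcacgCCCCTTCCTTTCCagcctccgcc
Rps3: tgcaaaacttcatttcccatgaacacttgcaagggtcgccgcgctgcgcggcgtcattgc
Rps18: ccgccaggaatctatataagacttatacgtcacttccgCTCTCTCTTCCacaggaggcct
Rps15a: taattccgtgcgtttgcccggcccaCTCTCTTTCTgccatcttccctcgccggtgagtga
Rps4x: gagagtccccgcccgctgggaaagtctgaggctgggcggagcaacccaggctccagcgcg
Rps9: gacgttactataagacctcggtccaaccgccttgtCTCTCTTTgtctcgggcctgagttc
These windows lie for Rps10 at chr17:27635225-27635284, minus strand, Rps3 at chr7:99483690-99483749, minus strand, Rps18 at chr17:33955646-33955705, minus strand, Rps15a at chr7:118116128-118116187, minus strand, Rps4x at chrX:102189372-102189431, minus strand and Rps9 at chr7:3704001-3704060, plus strand. The run was 13 bases long in Rps10, 11 in Rps18, 10 in Rps15a and 8 in Rps9, and in Rps10, Rps18 and Rps9 it spans the annotated start. In Rps3 and Rps4x no run of 6 bases was found within that distance of the annotated start. The RefSeq promoter table held windows for 23 of the 31 genes, and 19 of these 23 (82.6%) had such a run, against 43.8% of 27025 genes with a window. On either strand of the 300-base windows, CCGGAAG occurred in 10 of the 23 (43.5%) against 9.93% of all genes. AAGATGGC occurred in 2 (8.70%) against 3.19%, and TATAAA in 2 (8.70%) against 15.7%. These are letter matches in fixed windows and not measured binding or start sites.

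In Apln-/- crypt cells the messenger RNAs of the small subunit proteins were higher as a set. All 31 genes had a positive log2 fold change, from 0.22 to 1.30, with a median of 0.72 (quartiles 0.62 and 0.94). Over all genes tested the median was -0.01 and 49.5% had a positive value. For 28 of the 31 every Apln-/- library lay above every wild-type library, which was the case for 11.3% of all genes tested; for 0 of the 31 every one lay below, against 9.56% of all genes. Summed over the 31 genes, the level was 4122.1, 3319.4 and 3610.9 CPM (TMM-scaled) in Apln-/- libraries 1, 2 and 3, against 2114.6, 1663.9 and 2285.1 CPM in wild-type libraries 1, 2 and 3. The lowest Apln-/- sum stood above the highest wild-type sum, and the ratio of the means was 1.82. As a share of the counts outside the 5 most abundant entries, a measure without TMM scaling, the genes took 1.64%, 1.28% and 1.49% in Apln-/- against 0.883%, 0.676% and 0.951% in wild type. In bulk samples, a larger share of cells with high levels and more of the RNA per cell cannot be told apart.

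Few of the genes passed the test singly. By the quasi-likelihood test of edgeR, 3 of the 31 genes rose and 0 fell, while 0.112% of all genes rose and 0.0595% fell. The threshold was a Benjamini-Hochberg adjusted p of 0.05 over all 15122 genes. At an unadjusted p under 0.05 there were 26 with a higher level and 0 with a lower one, against 7.53% and 7.66% of all genes. With 1 library left out, 0 of the 31 passed, except without wild-type library 3, when 15 did. Under other scalings the adjusted p lay above the threshold for all 31, 0.0501 at the lowest with DESeq2 size factors and 0.0531 with upper-quartile scaling. Under either of them 0 genes of the whole table rose, so the calls of higher genes given below were lost there too.

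**Figure D1:**
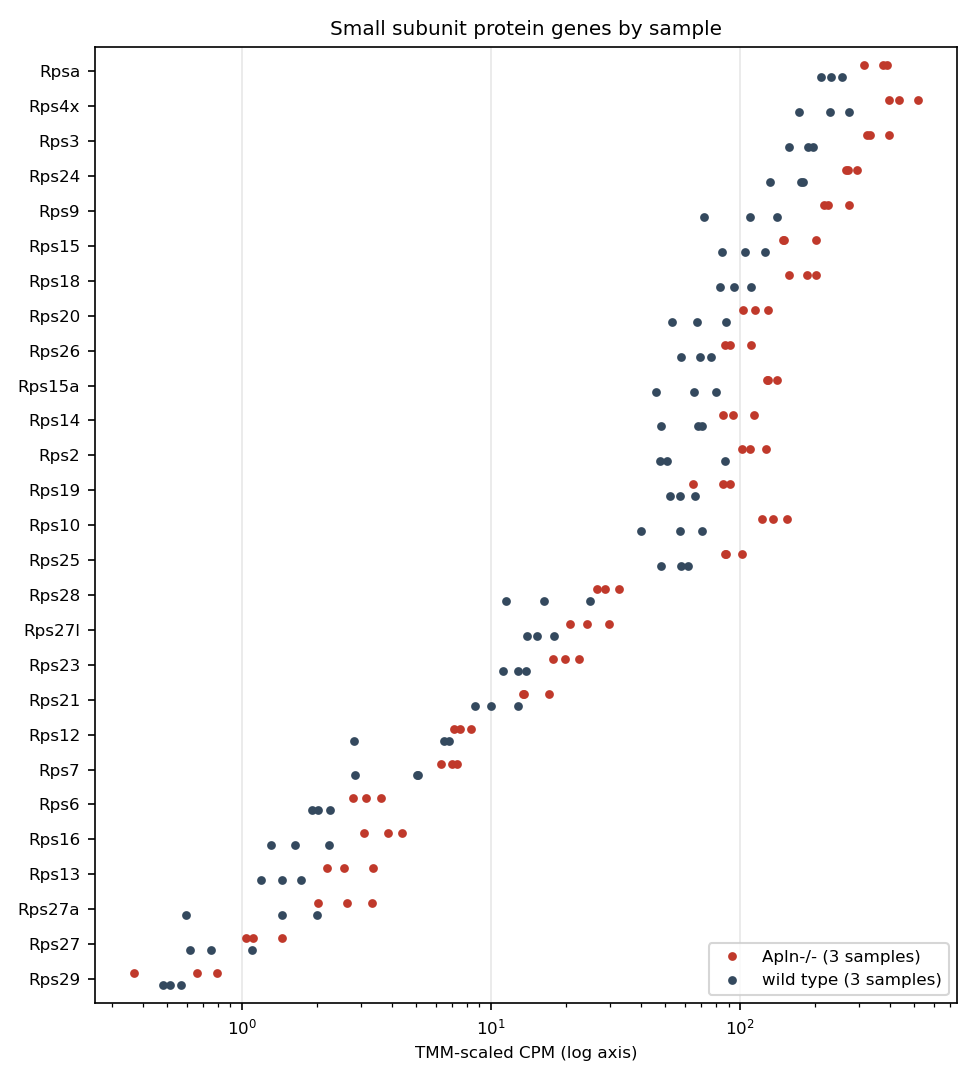
TMM-scaled CPM (x axis, log scale) of 27 small subunit protein genes, 1 dot per sample, Apln-/- samples above the wild-type samples in each row. Rows are ordered by the wild-type mean, from Rpsa (233 CPM) down to Rps29 (0.522 CPM), and Apln-/- dots lie to the right of the wild-type dots in all rows but Rps19, Rps27 and Rps29, where the groups overlap.

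Of the 14 genes of head proteins, 3 rose (0.112% of all genes), and the median log2 fold change was 0.74. In 12 every Apln-/- library lay above every wild-type library (11.3% of all genes). Rps10 (chromosome 17, 27630418 to 27636669, minus strand, mm10) encodes a head protein near the entry of the messenger RNA channel, and is one of the genes mutated in the human anaemia named after Diamond and Blackfan. It stood at 155, 123 and 136 CPM in Apln-/- libraries 1, 2 and 3, against 57.7, 40 and 70.6 CPM in the wild-type libraries. Each Apln-/- value was above all wild-type values, and Rps10 rose 2.46-fold (log2 fold change 1.30 ± 0.20 SE, edgeR adjusted p = 0.0460). Its exons overlap the readthrough entry RPS10-NUDT3 and Gm15420, and its counts are uncertain to that extent. Other genes named here also have exons that overlap another entry on either strand. Among them are Rps3 (Snord15b), Rps18 (Vps52), Rps25 (Ccdc84 and Trappc4), Rps28 (Kank3), Rps27a (Clhc1) and Rack1 (Trim41).

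Rps3 (chromosome 7, 99477896 to 99483738, minus strand), whose protein lines the channel by which messenger RNA enters, had 397, 323 and 334 CPM in Apln-/- against 197, 157 and 187 CPM in wild type. The gap between the groups, from 197 to 323 CPM, was wider than either group. Rps3 rose 1.95-fold (log2 fold change 0.96 ± 0.16 SE, edgeR adjusted p = 0.0460). Nearly all of its coding sequence is found in no other gene, with 1 other gene sharing part of it.

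Rps18, which touches the large subunit from the top of the head, had 203, 158 and 186 CPM in Apln-/- against 111, 83.3 and 94.5 CPM in wild type. The groups were apart, with a log2 fold change of 0.92 ± 0.16 (SE) and an edgeR adjusted p of 0.0504, just short of the threshold. Other head genes with separate groups included Rps15 (167 ± 30 CPM in Apln-/-, 105 ± 20.7 CPM in wild type), Rps20 (116 ± 13.7 and 69.4 ± 17.3 CPM), a gene of hereditary colorectal cancer in humans, and Rps25 (92.7 ± 8.46 and 56.1 ± 7.10 CPM; SD, n = 3 each). Rps28, at the exit of the messenger RNA channel, averaged 29.3 ± 3.10 CPM in Apln-/- and 17.6 ± 6.81 CPM in wild type (SD, n = 3 each). None of these passed the edgeR test (adjusted p of 0.0677 to 0.178). Rps12, at 7.13 to 8.31 CPM in Apln-/- against 2.82 to 6.81 CPM in wild type, had a log2 fold change of 0.51 (edgeR adjusted p = 0.469).

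The 2 smallest log2 fold changes were also among the head genes. Rps19, the gene most often mutated in Diamond-Blackfan anaemia, had 91.2, 65.0 and 85.3 CPM in Apln-/- against 66.3, 57.5 and 52.3 CPM in wild type. Apln-/- library 2 lay below wild-type library 1, so the groups overlapped, and the log2 fold change was 0.46 ± 0.17 (SE; edgeR adjusted p = 0.231). Rps29 was at the edge of detection, with 17, 8 and 14 counts in Apln-/- against 13, 14 and 18 counts in wild type. Its level was 0.797, 0.369 and 0.662 CPM in Apln-/- against 0.516, 0.482 and 0.568 CPM in wild type, and a log2 fold change of 0.22 ± 0.63 (SE; edgeR adjusted p = 0.909) leaves a difference not detectable at this depth.

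Rps27a, whose protein is made as a fusion with ubiquitin, had 71, 44 and 56 counts in Apln-/- against 15, 58 and 46 counts in wild type. In CPM this was 3.33, 2.03 and 2.65 against 0.595, 2.00 and 1.45, groups that barely part between Apln-/- library 2 and wild-type library 2. The log2 fold change of 0.98 ± 0.47 (SE) did not pass the edgeR test (adjusted p = 0.355).

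**Figure D2:**
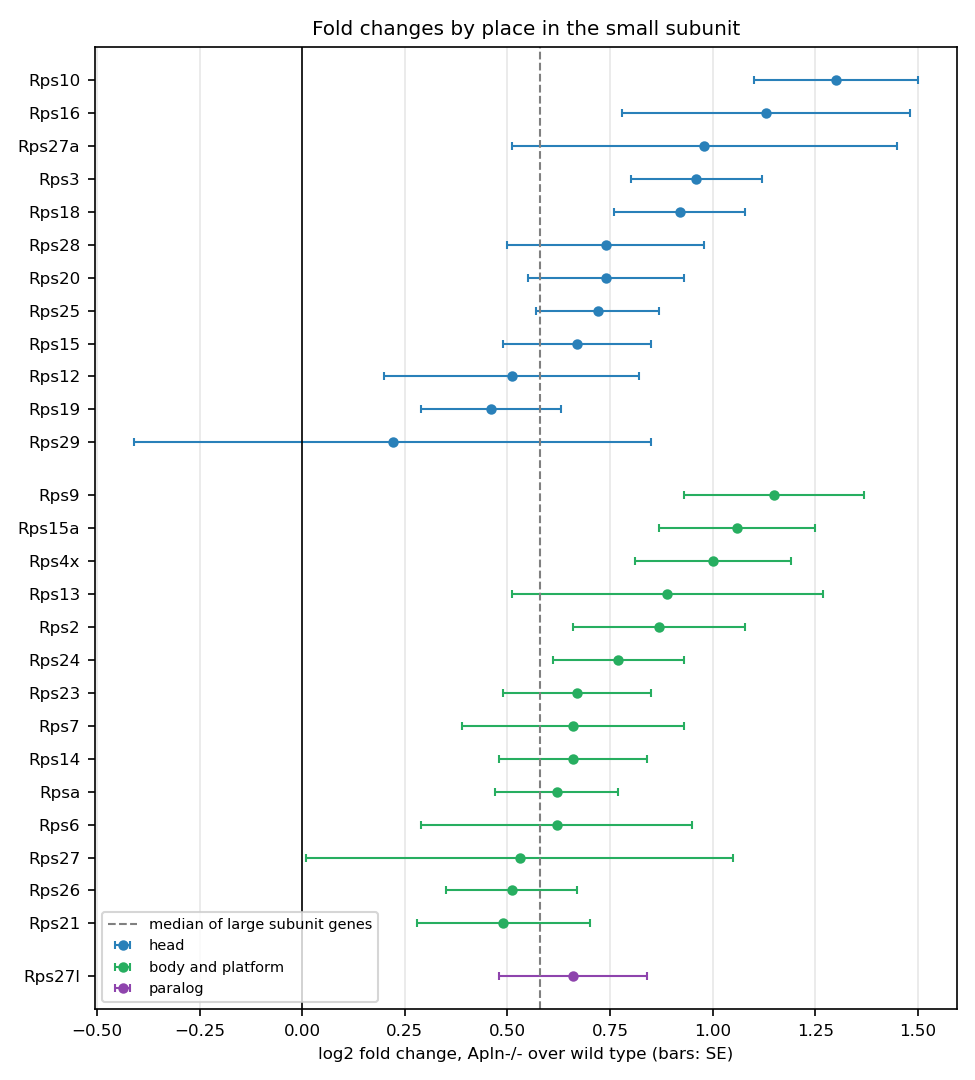
Log2 fold change, Apln-/- over wild type, with its SE as a bar, for 27 small subunit protein genes grouped as head, body and platform, and the paralog Rps27l; the dashed line is the median of the large subunit genes, 0.58. All points lie right of 0, from Rps29 (0.22) to Rps10 (1.30), and the widest bars belong to Rps29, Rps27 and Rps27a, which had few counts.

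Of the 16 genes of body and platform proteins 0 passed the edgeR test over all genes (0.172% of all genes passed), and the median log2 fold change was 0.69. In 15 every Apln-/- library lay above every wild-type library (11.3% of all genes). Rps9, a body protein that binds the ribosomal RNA early in assembly, had 273, 217 and 226 CPM in Apln-/- against 110, 71.7 and 141 CPM in wild type. The groups were apart, and its log2 fold change of 1.15 ± 0.22 (SE) came with an edgeR adjusted p of 0.0517.

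Rps15a had 141, 129 and 130 CPM in Apln-/- against 65.3, 46.0 and 79.9 CPM in wild type. The Apln-/- libraries were close to each other (SD 6.56 CPM) and above all wild-type libraries (SD 17 CPM), with a log2 fold change of 1.06 ± 0.19 (SE; edgeR adjusted p = 0.0504). Rps4x lies on the X chromosome and encodes a body protein. It had 518, 397 and 437 CPM in Apln-/- against 231, 173 and 274 CPM in wild type, groups that were apart, with a log2 fold change of 1.00 ± 0.19 (SE; edgeR adjusted p = 0.0517).

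Rps24 had 295, 271 and 267 CPM in Apln-/- against 176, 132 and 179 CPM in wild type. These groups were apart (log2 fold change 0.77 ± 0.16 SE; edgeR adjusted p = 0.0616). Per kilobase of coding sequence Rps24 had the highest level of the genes when both groups are averaged, 696 CPM per kilobase in Apln-/- and 407 in wild type. Rps29 had the lowest by the same average, 3.63 in Apln-/- and 3.11 in wild type. In wild type alone Rps6 (2.77) and Rps27a (2.88) were lower, and in Apln-/- alone another small subunit gene was above Rps24. Counts fall on whole transcripts, and that of Rps24 has 1613 nucleotides, 399 of them coding. The order therefore depends on the length that is used.

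Rpsa, also known as the laminin receptor precursor, averaged 360 ± 40.5 CPM in Apln-/- and 233 ± 22.1 CPM in wild type. Rps2, which sits at the messenger RNA entry, averaged 113 ± 12.5 and 61.9 ± 21.6 CPM. Rps14, whose loss of 1 copy underlies the human 5q deletion anaemia, averaged 97.9 ± 14.6 CPM in Apln-/- and 62.1 ± 12.0 CPM in wild type, and Rps26, at the exit of the channel, 96.6 ± 12.8 and 67.9 ± 9.34 CPM (SD, n = 3 each). In each the groups were apart, and the edgeR adjusted p was 0.0989 to 0.170. Rps21 had the smallest log2 fold change here, with 17.1, 13.6 and 13.5 CPM in Apln-/- against 10, 8.64 and 12.8 CPM in wild type. Rps7, with 6.28 to 7.29 CPM in Apln-/- against 2.86 to 5.11 CPM in wild type, had separate groups too (log2 fold change 0.66, edgeR adjusted p = 0.279). The groups of Rps21 were apart by less than 1 CPM (log2 fold change 0.49 ± 0.21 SE; edgeR adjusted p = 0.283).

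The 10 genes that are mutated in human Diamond-Blackfan anaemia, a list of both places in the subunit, had a median log2 fold change of 0.60. Among them 1 rose, Rps10, against 0.112% of all genes. In 7 every Apln-/- library lay above every wild-type library (11.3% of all genes).

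Rps27 and its paralog Rps27l differ along their coding sequences. Over the first 60 coding bases, with the 18 differing bases in capitals, they read as follows.
Rps27: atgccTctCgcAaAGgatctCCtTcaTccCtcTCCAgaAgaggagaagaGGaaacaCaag
Rps27l: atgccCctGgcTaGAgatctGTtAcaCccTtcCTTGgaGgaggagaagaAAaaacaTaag
Over the whole coding length of 252 bases they were identical at 76.2% of positions. Rps27l, a p53 target gene in other cells, had 24.3, 29.9 and 20.7 CPM in Apln-/- against 15.3, 14.0 and 17.9 CPM in wild type, groups that were apart (log2 fold change 0.66 ± 0.18 SE; edgeR adjusted p = 0.128). Rps27 was far lower, at 1.45, 1.11 and 1.04 CPM in Apln-/- against 0.754, 0.620 and 1.10 CPM in wild type, with overlapping groups (log2 fold change 0.53 ± 0.52 SE; edgeR adjusted p = 0.680). None of the 50-base windows of Rps27 coding sequence was its own, against 51.7% of those of Rps27l, so a lower level and a loss of shared reads cannot be told apart for Rps27.

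Much of the coding sequence of these genes is also found in transcripts of other genes. For each gene the coding sequence was cut into overlapping windows of 50 bases, and a window counted as unique when no transcript of another annotated gene held it on either strand. Rps3 had 91.9% unique windows, Rps9 57.0%, Rps15 56.7%, Rps10 6.95% and Rpsa 1.20%. In 10 of the 31 genes no window was unique, and together these had 110 ± 8.87 CPM in Apln-/- and 70.0 ± 13.6 CPM in wild type. The 7 genes with most of their windows unique had 1348.1 ± 163 and 686 ± 130 CPM (SD, n = 3 each). Across the 31 genes Spearman's rho was 0.67 between the level per kilobase of coding sequence and the percent of unique windows, as a description of genes that share libraries. The median of the log2 fold changes was 0.64 for the 10 genes without unique windows, 0.76 in the 14 between and 0.70 in the 7 with the most, 2 of which passed the edgeR test.

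**Figure D3:**
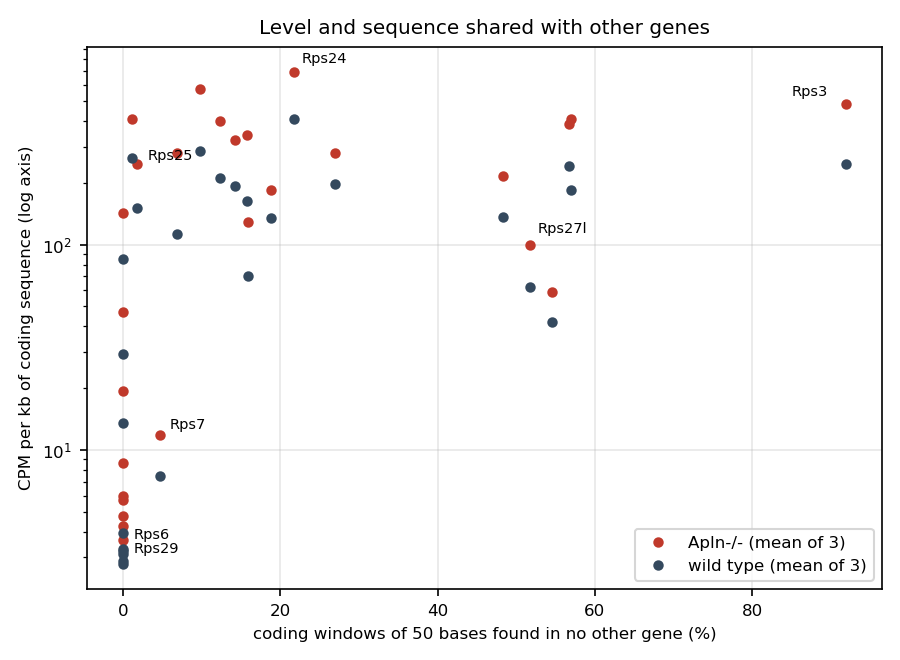
CPM per kilobase of coding sequence (y axis, log scale, mean of 3 samples) against the percent of 50-base coding windows found in no other annotated gene, for 27 small subunit protein genes, with Apln-/- and wild type as separate points. Rps6 and Rps29, both without a unique window, lie near the bottom, at 4.26 and 3.63 CPM per kilobase in Apln-/-, while Rps3 lies at the upper right with 482.

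Annotated pseudogenes held many counts. The table holds 71 entries named as a copy of 23 of these genes, and for 4 of them the copies held most of the counts. Rps16 itself had 3.78 ± 0.654 CPM in Apln-/- and 1.72 ± 0.473 CPM in wild type, while Rps16-ps2 had 139 ± 11.7 and 80.3 ± 13.6 CPM. Rps6, the subunit protein that the kinases named after it phosphorylate, had 3.18 ± 0.413 CPM in Apln-/- and 2.07 ± 0.173 CPM in wild type, and Rps6-ps4 83.5 ± 13.3 and 58.8 ± 3.54 CPM. Rps13 had 2.71 ± 0.587 and 1.46 ± 0.272 CPM, and Rps13-ps2 64.8 ± 3.13 and 31.3 ± 10.6 CPM. Rps23, of the decoding centre, had 20.1 ± 2.44 CPM in Apln-/- and 12.6 ± 1.34 CPM in wild type, and Rps23-ps1 133 ± 13.0 and 86.4 ± 9.71 CPM (SD, n = 3 each). Of the counts of gene and copies, Rps16 held 2.64% in Apln-/- and 2.09% in wild type, Rps6 held 3.65% and 3.35%, Rps13 held 4.03% and 4.69%, and Rps23 held 13.1% and 12.8%. In these 4 genes the groups' shares lay within 1 percentage point of each other. The share of Rps25 was 62.1% in Apln-/- and 68.5% in wild type.

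Rps10 held 55.4% ± 0.960 of the counts of itself and its 3 copies in Apln-/- and 54.9% ± 0.559 in wild type. Its coding sequence is identical to Rps10-ps1 over the first 60 bases and at 98.8% of all positions, and at 99.0% to Rps10-ps2. Counts assigned to both copies rose with it, for Rps10-ps2 by a log2 fold change of 1.23 and for Rps10-ps1 by 1.36 (edgeR adjusted p = 0.0460 for each). The handling of reads with several matches is not known, so reads from a gene and from such copies cannot be told apart here. Rps15a-ps7, also called (log2 fold change 1.14, edgeR adjusted p = 0.0460), differs from Rps15a in 2 of the first 60 coding bases, shown in capitals.
Rps15a: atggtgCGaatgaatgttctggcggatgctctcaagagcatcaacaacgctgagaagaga
Rps15a-ps7: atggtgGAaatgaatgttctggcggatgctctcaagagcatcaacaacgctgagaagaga
With the counts of copies added to their genes, all 31 log2 fold changes were again positive with a median of 0.74, and the 23 genes with copies ranged from 0.29 to 1.28. The sum for Rps10 was 249 ± 27.8 CPM in Apln-/- and 102 ± 28.3 CPM in wild type, and for Rps16 143 ± 12.0 and 82.0 ± 14.0 CPM (SD, n = 3 each). No sum passed the edgeR test over all genes, with Rps10 at an adjusted p of 0.0513.

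**Figure D4:**
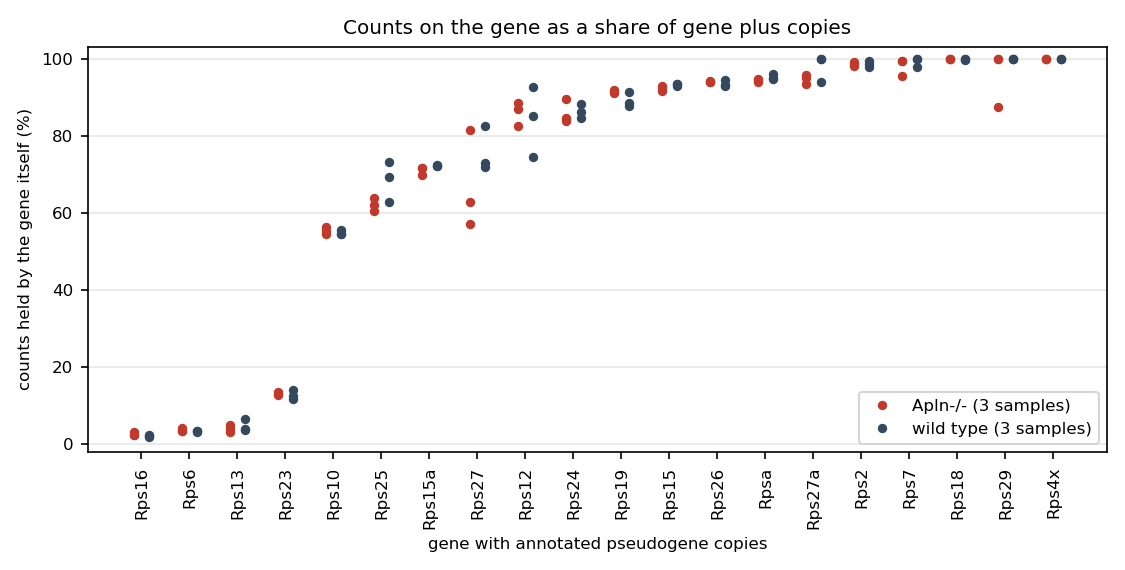
Percent of the counts of a gene and its named pseudogene copies that were assigned to the gene itself, 1 dot per sample, Apln-/- left of wild type, for 20 of the 23 genes with such copies. Rps16, Rps6, Rps13 and Rps23 lie under 15%, Rps10 near 55% in both groups, and most others above 80%.

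Shares of the summed level describe the mix within the set. Rps4x took 12.2% ± 0.320 in Apln-/- and 11.1% ± 0.815 in wild type, and Rpsa 9.77% ± 0.510 and 11.8% ± 2.38 (SD, n = 3 each), in each case with overlapping groups. The share of Rps10 was 3.76%, 3.71% and 3.77% in Apln-/- against 2.73%, 2.40% and 3.09% in wild type. That of Rps9 was 6.62%, 6.54% and 6.27% against 5.22%, 4.31% and 6.17%. Both shares were higher in every Apln-/- library. Rps26 took 2.70%, 2.63% and 2.53% in Apln-/- against 3.28%, 3.49% and 3.35% in wild type, and Rps14, Rps15, Rps21, Rps23, Rps27 and Rps29 also had lower shares in each Apln-/- library. Shares sum to a fixed total, so a lower share here can stand beside a higher level. In level, the groups of Rps27 and Rps29 overlapped.

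The 3 small subunit genes outside the symbol pattern were uneven. Rack1, a scaffold on the head, had 496, 403 and 445 CPM in Apln-/- against 224, 169 and 235 CPM in wild type, and rose 2.14-fold (edgeR adjusted p = 0.0460). As for the 31 genes, this call was lost under either other scaling (adjusted p = 0.0501 and 0.0531) and with 1 library left out, except wild-type library 3; the adjusted p was 0.0164 to 0.331 in those 6 fits. Rps3a1 had 280, 216 and 215 CPM in Apln-/- against 127, 87.9 and 143 CPM in wild type, groups that were apart (log2 fold change 0.99 ± 0.20 SE; edgeR adjusted p = 0.0556). Fau, made as a fusion with a ubiquitin-like protein, had 1.59, 1.52 and 1.13 CPM in Apln-/- against 1.75, 1.21 and 2.11 CPM in wild type, with overlapping groups (log2 fold change -0.25 ± 0.44 SE; edgeR adjusted p = 0.835) and no unique coding window.

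Genes of the large subunit were also mostly higher. Their median log2 fold change was 0.58 over 44 tested of 47, of which 37 were positive and 7 negative, 1 rose and 0 fell (0.112% and 0.0595% of all genes), and 32 had every Apln-/- library above every wild-type library (11.3% of all genes). Their summed level was 3733.8 ± 379 CPM in Apln-/- and 2386.7 ± 323 CPM in wild type (SD, n = 3 each), a ratio of 1.56 beside 1.82 for the small subunit. The difference between the subunits was not tested.

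Of 17 genes of factors that assemble the small subunit 0 rose and 0 fell in the edgeR test over all genes, with 1 higher and 0 lower at an unadjusted p under 0.05 (7.53% and 7.66% of all genes), and their median log2 fold change was 0.21. Pdcd2, whose protein is a chaperone of the Rps2 protein in human cells, had the lowest p (8.80 ± 1.33 CPM in Apln-/-, 5.63 ± 0.749 CPM in wild type; edgeR adjusted p = 0.211). Next came the kinase Riok2 (18.5 ± 3.94 and 14.0 ± 0.371 CPM; edgeR adjusted p = 0.341) and the nuclease Nob1 (5.83 ± 0.974 and 3.71 ± 1.42 CPM; edgeR adjusted p = 0.363), which act late in the subunit's assembly.

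Of 13 genes of Rps6 kinases and regulators of TOP messenger RNAs, 0 passed the edgeR test over all genes, and 4 were lower and 0 higher at an unadjusted p under 0.05, against 7.66% and 7.53% of all genes. Their median log2 fold change was -0.35. Larp1, which binds the TOP sequence and holds those messenger RNAs, had the lowest p (69.8 ± 2.56 CPM in Apln-/-, 109 ± 16.6 CPM in wild type; log2 fold change -0.65 ± 0.15 SE, edgeR adjusted p = 0.0926). Tsc2, an inhibitor of mTORC1, had 9.47 ± 1.16 and 14.7 ± 2.34 CPM (edgeR adjusted p = 0.165), and Eif4ebp2, a repressor of cap-dependent initiation, 75 ± 4.44 and 108 ± 20.2 CPM (edgeR adjusted p = 0.169; SD, n = 3 each). These are long transcripts, with a median of 5459 nucleotides.

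Transcript length moved with the fold change in these libraries. Among the eighth of tested genes with the shortest transcripts, 56 to 937 nucleotides, the median log2 fold change was 0.27, and among the eighth with the longest it was -0.19. Of the 31 small subunit genes 23 lay in the shortest eighth, and the median of 0.72 over all 31 stood above the medians of every eighth. Across the 31 genes, which share the libraries, longer transcripts had higher fold changes (rho 0.47), while over 15111 genes with a length rho was -0.27. By the rule used for length, the longest of the 31 were Rps15a (5130 nucleotides, 390 of them coding) and Rps20 (3706, 357 of them coding). The rho and the correction below rest on these lengths. With trends of length and GC content taken out of each library, the median of the 31 was 0.58, all 31 values were positive and 0 passed the edgeR test. Rps10 then had a log2 fold change of 1.14 and Rps3 of 0.91, both at an edgeR adjusted p of 0.0810. That of Rps15a was 1.15 with the correction and 1.06 without it. The part of length in the result was not otherwise tested.

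**Figure D5:**
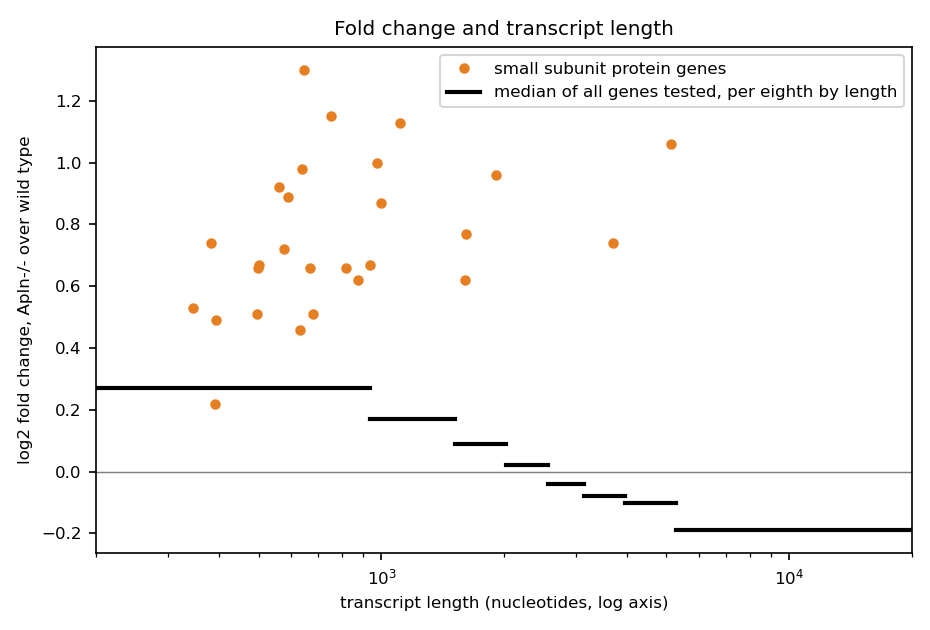
Log2 fold change, Apln-/- over wild type, of 27 small subunit protein genes (dots) against transcript length (nucleotides, log scale), with black bars for the median of all tested genes in each eighth by length. The bars step down from 0.27 to -0.19, and all dots but Rps29 lie above the bar of their length.

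Marker lists of some crypt cell types also differed between the groups. The 7 Paneth cell markers, all tested, summed to 1075.1 to 2557.3 CPM in Apln-/- against 644 to 1014.3 CPM in wild type. Lyz1 made up most of this sum, on average 1068.0 of 1756.9 CPM in Apln-/- and 468 of 888 CPM in wild type. All 7 log2 fold changes were positive, from 0.18 to 1.30, and 0 of the 7 rose in the edgeR test (0.112% of all genes). In 2, Lyz1 and Mptx2, every Apln-/- library lay above every wild-type library (11.3% of all genes). The 7 tuft cell markers summed to 27.1 to 63.9 CPM in Apln-/- against 82.0 to 112 CPM in wild type. Of them 1, Plcb2, fell in the edgeR test (adjusted p = 0.0460) and 0 rose, against 0.0595% and 0.112% of all genes. With 1 library left out, 0 genes of the whole table fell, except without wild-type library 3. Under DESeq2 size factors or upper-quartile scaling 1 gene of the whole table fell, against 9 in the main fit. Whether Plcb2 was that gene was not examined. The 6 of 7 enteroendocrine markers that were tested summed to 388 to 530 CPM in Apln-/- against 685 to 937 CPM in wild type. Of the 6 markers of cycling cells 5 had a positive log2 fold change and 1 a negative one, with a median of 0.13. The negative one was Mki67, at 201 ± 32.9 CPM in Apln-/- and 355 ± 46.0 CPM in wild type (SD, n = 3 each; edgeR adjusted p = 0.0628). The 6 stem cell markers overlapped, at 813 to 1588.3 CPM in Apln-/- and 763 to 1158.5 CPM in wild type. So did the 6 enterocyte markers, at 352 to 564 and 330 to 426 CPM. The 6 goblet cell markers summed to 1903.1 to 2025.8 CPM in Apln-/-, against 2252.1, 1446.6 and 4376.1 CPM in wild-type libraries 1, 2 and 3. The 6 stromal markers summed to 14.2 to 25.9 CPM in Apln-/-, against 38.9, 33.5 and 4.79 CPM in these wild-type libraries. The 5 of 6 blood-cell markers tested summed to 422 to 612 CPM in Apln-/- against 583 to 854 CPM in wild type, of which Cd74 averaged 545 and 734 CPM. Ptprc, at 1.42 ± 0.335 CPM in Apln-/- and 2.77 ± 0.567 CPM in wild type, was lower in every Apln-/- library (SD, n = 3 each; edgeR adjusted p = 0.264). Cd79a (log2 fold change 0.78) and Lyz2 (0.05) were positive and Cd3e was negative (-0.12), all under 1 CPM on average in both groups. The sixth blood-cell marker, Tyrobp, had 0 counts in Apln-/- libraries and 1, 0 and 0 in wild-type libraries. Of the 5 endothelial markers 1 was tested, Esam, with 21, 14 and 22 counts in Apln-/- against 31, 0 and 8 in wild type. The part of these cell types in the small subunit result was not tested. With the 5 most abundant entries removed before scaling, the median log2 fold change of the 31 genes was 0.71.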

How the data were processed

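RNA-seq was done on 6 libraries, 3 of Apln-/- and 3 of wild-type crypt cells. Per the submitters' processing notes, STAR 2.6.1, HTSeq and the mouse build mm10 were used. Their annotation release, strand setting and handling of reads with several matches were not given in the sources used. As deposited by the authors, the values are whole-number counts per Ensembl gene without normalization, and 0 columns lacked a sample.

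Symbols, positions, lengths and coding sequences came from GENCODE M21 of the same build; 13 of 28564 identifiers had no symbol. Transcript length was the median of the principal, or else the coding, transcripts, and the longest transcript of a noncoding gene. In R 4.3.3, edgeR 4.0.16 filtered genes (filterByExpr, count minimum 10, total minimum 15), scaled by TMM and compared Apln-/- with wild type by glmQLFit and glmQLFTest without covariates. Benjamini-Hochberg adjustment covered all 15122 genes, with a threshold of 0.05. CPM are TMM-scaled. The script was checked on simulated data. A count of 0 allows up to 3 counts, 0.138 to 0.142 CPM in Apln-/- and 0.0946 to 0.119 CPM in wild-type libraries, for counting error only.

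The genes and lists were chosen with earlier results of these data known. Named in full are genes past the threshold, those of lowest p up to 8, the 3 of lowest fold, those of highest and lowest level per coding length, Rps27, Rps27l, Rps4x, Rps27a and the 3 outside the pattern; from other lists the 3 of lowest p. The copies of Rps10 and Rps15a, the 4 genes with most counts on copies, and genes given by group means were named after their values were seen. Of the 31 genes 4 are not reported here by name and are left out of the figures; counts, sums and medians over the set include them. Alternatives were other scalings, DESeq2 1.42.0, limma-voom (limma 3.58.1), other filters, a length and GC correction, a replicate block, added copies and leaving out each library.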

Additional observations from a re-analysis of the deposited data

How the results depend on the processing

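The direction of the named small subunit genes held in all settings run, apart from Rps29, whose log2 fold change ranged from -0.02 to 0.48 with 1 library left out and was lowest without Apln-/- library 1. The number of the 31 small subunit genes called, 3 of them beside 26 of all genes, did not hold. It was 0 (with 1 of all genes) with DESeq2 size factors, upper-quartile scaling, without the 5 most abundant entries, with the length and GC correction, or with copies added. It was 18 (551 of all genes) in the DESeq2 Wald test, 9 (56) in limma-voom, 18 (629) with no filter and 11 (117) with at least 1 CPM in 3 samples, where 29 of the 31 were tested. Leaving out 1 library gave 0 to 15 (0 to 358 of all genes). The highest numbers came without wild-type library 3, and the others gave 0 of the 31. The summed ratio ranged from 1.66 to 1.96 and the median log2 fold change from 0.62 to 0.83 over these 6 fits. The replicate block gave 14 of the 31 and 173 of all genes, but the labels do not say that the numbers pair the samples. The numbers used are the replicate numbers of the sample titles. The deposited count columns of Apln-/- libraries 2 and 3 are named KO3 and KO4, so the 2 numberings differ. Deviations of libraries with the same title number correlated at 0.041, 0.057 and 0.011, against -0.052 to 0.017 for libraries of different title number. By column name Apln-/- library 2 would go with wild-type library 3, and these correlated at -0.010. Apln-/- libraries 1 and 2 correlated best with the wild-type library of their title number, and Apln-/- library 3 with wild-type library 1. Values this small cannot settle whether the samples were paired. With no filter, Apln had an edgeR adjusted p of 0.0206. Causes were not tested. Rps29, Rps27 and Rps27a, with few counts, had SEs of 0.47 to 0.63 on the log2 scale, so depth limits what can be said of them.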
